A study of Mus musculus with 4 samples.

Results

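Nucleated erythroid cells, the haemoglobin-making precursors of red blood cells, were examined in single-cell RNA sequencing libraries of mouse hindlimb. A barcode, the tag of a single droplet, counted as erythroid where it held at least 3 unique molecular identifiers (UMIs, the tags that count captured transcripts) summed over 5 genes. These were Car1 (a carbonic anhydrase), Hemgn (a nuclear protein of blood-forming cells), Rhd (the Rhesus blood group protein), Alas2 (the erythroid enzyme for the first step of heme synthesis) and Ctse (the protease cathepsin E). The cells were thus chosen by the summed UMIs of these 5 genes. The barcode also had a minimum of 200 genes and 500 UMIs, with no more than 20% of UMIs from mitochondrial genes. It held fewer than 5 UMIs of the granulocyte-monocyte progenitor genes Elane, Mpo and Prtn3, and fewer than 3 of the endothelial genes Pecam1, Cdh5, Egfl7 and Cldn5. Haemoglobin, which is found free in such suspensions, was left out of the rule. The rule chose 180 of the 6544 barcodes that passed the filters on genes, UMIs and mitochondrial share.

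The 4 libraries, 1 per group, came from a study of radiation damage to muscle. In male C57Bl/6J mice aged 5 weeks, X-rays were given to one hindlimb in 3 fractions of 8.2 Gy while lead shielded the rest of the body, so that the shielded limb served as control. The groups were the irradiated limb (IR) and the shielded limb (CON) at 24 hours, and IR and CON at 56 days. Cells of 3 limbs were pooled in each library, treated with a red cell lysis buffer, and sorted as live, nucleated cells. The control is thus a limb of an irradiated animal, the sort was set for cells with a nucleus, and limbs within a library cannot be told apart. The counts do not show a nucleus. Red cells without one that passed the lysis and the sort cannot be told apart from nucleated cells. With 1 library per group no difference between groups was tested, and every interval below is a 95% interval that covers counting error only. The deposited libraries held 2763 barcodes in IR and 1471 in CON at 24 hours, and 1030 in IR and 1822 in CON at 56 days, with totals between 4715202 and 10121978 UMIs. Erythroid cells were deeper than the rest, with a median of 11092 UMIs in IR and 10439 in CON at 24 hours and 10780 in IR and 9814 in CON at 56 days, where the median over kept barcodes lay between 3057 and 3627. Of all deposited barcode sequences, 11 occurred in more than 1 library, and 1 was erythroid in both of its libraries.

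In the adult mouse, red cells are made in the bone marrow, where precursors divide several times while they fill with haemoglobin, condense the nucleus and then lose it. Heme is built from glycine and succinyl-CoA by a chain of enzymes that begins with Alas2 and ends with Fech, and the iron for it enters through the transferrin receptor Tfrc. The factors Gata1, Klf1 and Tal1 drive the erythroid genes, and Gata1 recognises short motifs with the core letters GATA.

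The promoters of the genes that defined the cells are shown here with such motifs, since these 5 genes decide which barcodes the results rest on. Of the 5 genes, 3 had an entry in the RefSeq promoter table (GRCm38.p6), and Hbb-bs, the major adult beta-globin gene, was added. Car1 and Ctse are named only. Each sequence is the 250 bases before the RefSeq start of the gene, in the direction of transcription, with motif letters in capitals.
Hemgn: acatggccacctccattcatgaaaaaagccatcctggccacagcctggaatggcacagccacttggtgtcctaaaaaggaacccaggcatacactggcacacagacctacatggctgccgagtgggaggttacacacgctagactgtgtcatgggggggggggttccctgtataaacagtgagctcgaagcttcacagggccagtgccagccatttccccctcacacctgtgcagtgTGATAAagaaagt
Rhd: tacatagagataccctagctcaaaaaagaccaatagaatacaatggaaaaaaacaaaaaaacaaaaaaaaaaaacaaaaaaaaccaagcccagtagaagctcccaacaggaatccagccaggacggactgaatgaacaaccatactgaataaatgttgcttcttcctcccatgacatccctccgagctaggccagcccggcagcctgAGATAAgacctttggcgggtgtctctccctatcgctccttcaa
Alas2: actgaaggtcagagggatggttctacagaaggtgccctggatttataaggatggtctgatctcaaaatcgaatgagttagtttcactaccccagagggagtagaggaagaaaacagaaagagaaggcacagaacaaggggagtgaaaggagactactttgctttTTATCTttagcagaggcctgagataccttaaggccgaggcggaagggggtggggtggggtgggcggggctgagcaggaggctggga
Hbb-bs: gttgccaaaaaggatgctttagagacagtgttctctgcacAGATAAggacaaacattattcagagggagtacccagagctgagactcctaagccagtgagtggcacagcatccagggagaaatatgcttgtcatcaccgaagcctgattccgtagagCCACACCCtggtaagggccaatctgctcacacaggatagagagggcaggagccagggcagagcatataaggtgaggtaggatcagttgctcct
The windows lie at chr4:46404184-46404433 on the minus strand for Hemgn, chr4:134864286-134864535 on the plus strand for Rhd, chrX:150547167-150547416 on the plus strand for Alas2 and chr7:103827929-103828178 on the minus strand for Hbb-bs. The GATA motif was searched as AGATAA or AGATAG and as TGATAA or TGATAG, on both strands. A match began 13 bases before the start in Hemgn, 43 in Rhd, 86 in Alas2 (as TTATCT, on the other strand) and 210 in Hbb-bs. The CACC box CCACACCC, the kind of site Klf1 binds, matched 93 bases before the start of Hbb-bs. GATA letters occurred in 27.1% and CACC letters in 3.19% of 27025 mouse promoter windows of the same length, so a match is a description and not a site.

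The values that chose the cells were as follows. Car1 (chr3:14766216-14808368) had 2 UMIs in IR and 31 in CON at 24 hours, and 222 in IR and 935 in CON at 56 days. Hemgn (chr4:46393989-46413506) had 2 and 215 UMIs in IR and CON at 24 hours, and 220 and 897 in IR and CON at 56 days. Alas2 (chrX:150547375-150570638) had 71 UMIs in IR and 804 in CON at 24 hours, and 266 in IR and 1122 in CON at 56 days. Of these genes Car1 was carried by the fewest cells in CON at 24 hours, 5 of 53, against 51 of 53 for Alas2. All 5 genes were carried by 49 of the 180 cells, 4 by 70, 3 by 36, 2 by 11 and a single gene by 14. At the threshold itself, 5 cells held exactly 3 UMIs of the 5 genes and had a median globin share of 0.573%. Just outside it, 10 barcodes with 2 UMIs had a median globin share of 27.9%, and 8 of these carried Car2. Most cells were far from the threshold, with 158 at 10 UMIs or more. The endothelial limit left out 6 further barcodes and the progenitor limit none.

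Genes that the rule did not use marked most of the cells as erythroid. Car2, the carbonic anhydrase of red cells and the fifth marker fixed for this cell type, was found in 4 of 5, 52 of 53, 29 of 29 and 91 of 93 erythroid cells of IR and CON at 24 hours and IR and CON at 56 days. Its level was 1810 CPM (UMIs per 1000000 UMIs) in IR and 2878 in CON at 24 hours, and 3990 in IR and 4994 in CON at 56 days, where all other barcodes held between 3.91 and 36.8 CPM. Over all libraries Slc4a1, the band 3 anion exchanger of the red cell membrane, was 1839 times its level in other barcodes (interval 1050 to 3567). Kel, the Kell blood group protein, was 848 times that level, Epb42 (protein 4.2 of the membrane skeleton) 748 times and Rhag (the Rhesus-associated glycoprotein) 622 times. These 4 proteins all belong to the red cell membrane.

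Whole gene lists separated in the same direction in all 4 libraries. In IR at 24 hours, 5207 of the 11206 non-globin UMIs came from 1 cell with pericyte markers that is described below. Without Alas2, which the rule used, the log2 level of the heme synthesis list per non-globin UMI was above that of all other barcodes by 4.83 ± 0.38 (SD over 4 libraries). Iron handling was above by 2.25 ± 0.38, erythroid transcription factors by 2.48 ± 0.33, red cell redox defence by 4.02 ± 0.57 and the G2/M list of the cell cycle by 3.86 ± 0.36. Early progenitor genes were below in all 4 libraries, by a mean log2 difference of -2.62 ± 0.82. The difference was -2.81 ± 1.02 against endothelial barcodes alone and -2.51 ± 0.59 against B cell precursors. Erythroid cells held only 1 UMI of this list in IR and 12 in CON at 24 hours, and 10 in IR and 144 in CON at 56 days. Against all other barcodes, Kit and erythropoietin signalling genes, and interferon response genes, were above in only 2 of 4. An exact sign-flip test over 4 libraries cannot give a p under 0.125, so none is reported for these differences.

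The list of erythroid transcription factors summed to 2320 non-globin CPM (1516 to 3400) in IR and 3916 (3595 to 4257) in CON at 24 hours, and to 2944 (2704 to 3200) in IR and 3112 (2982 to 3247) in CON at 56 days. Kit and erythropoietin signalling genes stood at 2231 (1444 to 3293) in IR and 1495 (1300 to 1712) in CON at 24 hours, and at 526 (428 to 641) in IR and 663 (604 to 727) in CON at 56 days. The first list was highest in CON at 24 hours and the second was higher in both libraries at 24 hours than at 56 days. The values of IR at 24 hours rest on 26 UMIs of the first list and 25 of the second. All levels of that library in this paragraph include the cell with pericyte markers, which held 5207 of its 11206 non-globin UMIs. Both lists also differed with globin share, by the 3 ranges set out below, and how far this bears on the differences between libraries was not tested. Per 10000 non-globin UMIs, the second list was at 7.03, 10.9 and 32.9 in the lowest, middle and highest range of CON at 24 hours. In CON at 56 days it was at 3.82, 9.41 and 31.1. The first list was at 25.4, 48.9 and 39.1 in CON at 24 hours, and at 25.1, 46.7 and 46.1 in CON at 56 days. Within ranges the second list thus stayed higher in CON at 24 hours throughout, most in the lowest. The first list was lower there in the highest range. Among single members, Gata1 had 1 UMI in IR and 21 in CON at 24 hours, and 33 in IR and 137 in CON at 56 days. Klf1, the erythroid factor that binds CACC boxes, had 0 UMIs in IR and 82 in CON at 24 hours, and 103 in IR and 295 in CON at 56 days, and the 0 allows up to 71.5 CPM (3 UMIs) where CON at 24 hours stood at 156 CPM. Epor, the erythropoietin receptor, had 0 and 37 UMIs in IR and CON at 24 hours (70.3 CPM in CON), and 27 and 107 in IR and CON at 56 days (87.5 and 95.9 CPM). Of Klf1 and Epor, only Klf1 stood in CON at 24 hours above the level that 0 UMIs allow in IR. Enzymes and antioxidants were found in more of these 5 cells. Gpx1, the main glutathione peroxidase of red cells, was at 5216 CPM in IR and 5153 in CON at 24 hours, and at 4337 in IR and 4856 in CON at 56 days. Per non-globin UMI the times lay further apart, at 19543 and 19316 CPM in IR and CON at 24 hours and at 7111 and 7845 CPM in IR and CON at 56 days. The redox list, which holds Gpx1, rose with globin share. Per 10000 non-globin UMIs it was at 205, 451 and 830 in the lowest, middle and highest range of CON at 24 hours. In CON at 56 days it was at 175, 414 and 711. Prdx2, an abundant peroxiredoxin of red cells, was at 1501 and 3436 CPM in IR and CON at 24 hours, and at 5050 and 5249 CPM in IR and CON at 56 days. It was carried by 5 of 5 and 29 of 29 cells of IR at 24 hours and 56 days. The levels of Prdx2, Klf1 and Epor are over all UMIs and are not compared between the times. Globin took 73.3% of these UMIs in IR and in CON at 24 hours, and 39.0% in IR and 38.1% in CON at 56 days.

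Some cells went against the label. The 2 cells that had passed on Ctse alone held 5410 UMIs of neutrophil markers in CON at 24 hours and 2564 in CON at 56 days, no Car2 and almost no globin. In IR at 24 hours, 1 of the 5 cells passed on 3 UMIs of Alas2, carried no Car2 or Slc4a1, and held 92 UMIs of pericyte and smooth muscle markers. At least 2 UMIs of some other cell type's marker list were found in 3 of 5, 16 of 53, 9 of 29 and 41 of 93 erythroid cells of IR and CON at 24 hours and IR and CON at 56 days. For myofibre markers the share with at least 1 UMI was 60.4% of erythroid cells in CON at 24 hours, where endothelial barcodes stood at 57.2%. Markers of B cell precursors and of basophils and mast cells were at 0 in all 4 libraries, and the T cell list had 1 UMI in all. No doublet caller was run, and results that moved without the cells bearing other markers are named with their values.

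Erythroid cells made up 0.197% of kept barcodes (0.0640% to 0.459%, 5 of 2539) in IR at 24 hours, against 3.97% (2.99% to 5.16%, 53 of 1336) in CON. The ratio of shares, IR over CON, was 0.0496 (0.0155 to 0.123). At 56 days they made up 2.99% (2.01% to 4.27%, 29 of 969) in IR and 5.47% (4.44% to 6.66%, 93 of 1700) in CON, a ratio of 0.547 (0.348 to 0.838). The share was thus lower in the irradiated limb at both times, with the smaller ratio at 24 hours, and the interval lay below 1 at both. The difference between the times was not tested. Between the shielded limbs, 56 days over 24 hours, the ratio was 1.38 (0.974 to 1.97), an interval that includes 1. Lysis, sorting and pooling come between these shares and the tissue, and fewer cells of a type cannot be told apart from fewer that passed the filters.

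**Figure D1:**
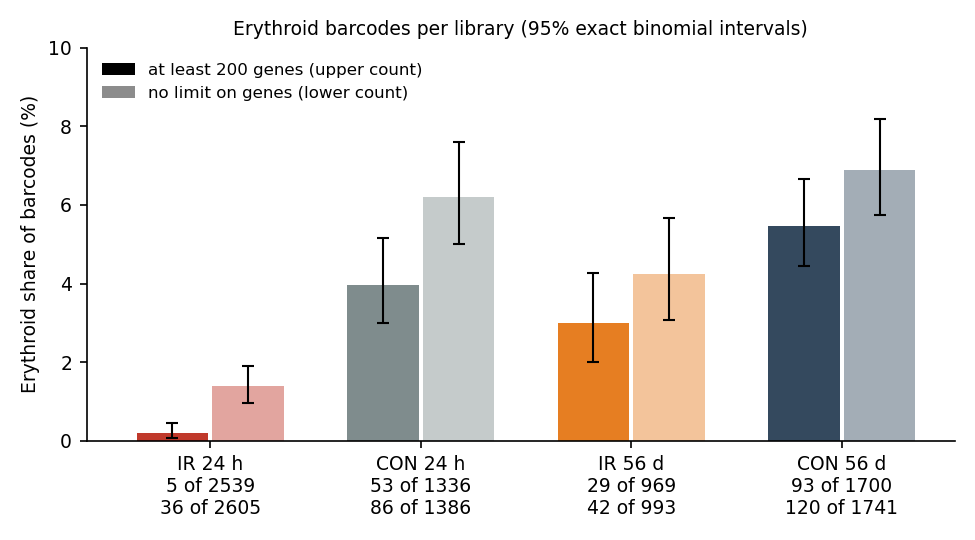
Erythroid share of barcodes in each library, as percent with 95% exact binomial intervals, for barcodes of at least 200 genes (dark bars) and with no limit on genes (pale bars). IR lies below CON at both times, at 0.197% and 3.97% at 24 hours and at 2.99% and 5.47% at 56 days with the limit.

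A share depends on what else was in the library. Endothelial barcodes made up 61.6% of kept barcodes in IR and 36.5% in CON at 24 hours, and 50.8% in IR and 46.0% in CON at 56 days. Counted over barcodes outside that class, erythroid cells were 0.513% in IR and 6.25% in CON at 24 hours, and 6.08% in IR and 10.1% in CON at 56 days. The ratios of IR over CON were then 0.0821 (0.0256 to 0.204) at 24 hours and 0.600 (0.381 to 0.919) at 56 days, and CON at 56 days over CON at 24 hours was 1.62 (1.14 to 2.32). Other marrow-type cells were counted by the same kind of rule. B cell precursors numbered 30 in IR and 110 in CON at 24 hours (ratio of shares 0.144, 0.0925 to 0.217), and 33 in IR and 30 in CON at 56 days (1.93, 1.14 to 3.28). Granulocyte-monocyte progenitors numbered 0 in IR and 11 in CON at 24 hours, and 3 in IR and 11 in CON at 56 days. The 3 kinds of cell all had lower shares in IR at 24 hours, while at 56 days the ratios lay on both sides of 1.

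The limit of 200 genes left out many erythroid barcodes, and this touched the 24-hour share. A further 104 barcodes met every other part of the rule, 31 in IR and 33 in CON at 24 hours and 13 in IR and 27 in CON at 56 days. They had a median of 85 genes and a median globin share of 96.4%. With them included, the share was 1.38% in IR (0.97% to 1.91%) and 6.20% in CON (4.99% to 7.61%) at 24 hours, and the ratio was 0.223 (0.147 to 0.332). At 56 days it was 4.23% in IR (3.07% to 5.67%) and 6.89% in CON (5.75% to 8.19%), with a ratio of 0.614 (0.421 to 0.879). Barcodes under the limit were 86.1% of all erythroid barcodes in IR at 24 hours, against 38.4% in CON, and 31.0% in IR against 22.5% in CON at 56 days. IR stayed below CON at both times, but the ratio at 24 hours was 0.0496 with the limit and 0.223 without it.

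Globin transcripts dominated the cells. They were 73.3% of all erythroid UMIs in both IR and CON at 24 hours, and 39.0% in IR and 38.1% in CON at 56 days, where other barcodes held between 0.110% and 0.276%. The median cell held 72.9% in IR and 81.4% in CON at 24 hours, and 31.8% in IR and 47.5% in CON at 56 days. The IR cell at the median of 56 days was shallow, with 1101 UMIs. Erythroid cells carried 13.5% of the library's globin UMIs in IR and 61.0% in CON at 24 hours, and 48.0% in IR and 70.0% in CON at 56 days. Hbb-bs was the leading globin in every library, at 54.7% and 58.0% of globin UMIs in IR and CON at 24 hours and at 56.8% and 59.8% in IR and CON at 56 days. Hbb-bt, the minor adult beta gene, made up 15.6% to 17.8%. The near-identical alpha genes Hba-a1 and Hba-a2 are given together, since reads may be split between them, and their UMIs were 0.379 times those of the beta genes in IR and 0.325 times in CON at 24 hours, and 0.381 times in IR and 0.299 times in CON at 56 days. The embryonic beta-like gene Hbb-bh1 had 0, 29, 6 and 24 UMIs in IR and CON at 24 hours and in IR and CON at 56 days, a small part beside the adult genes.

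**Figure D2:**
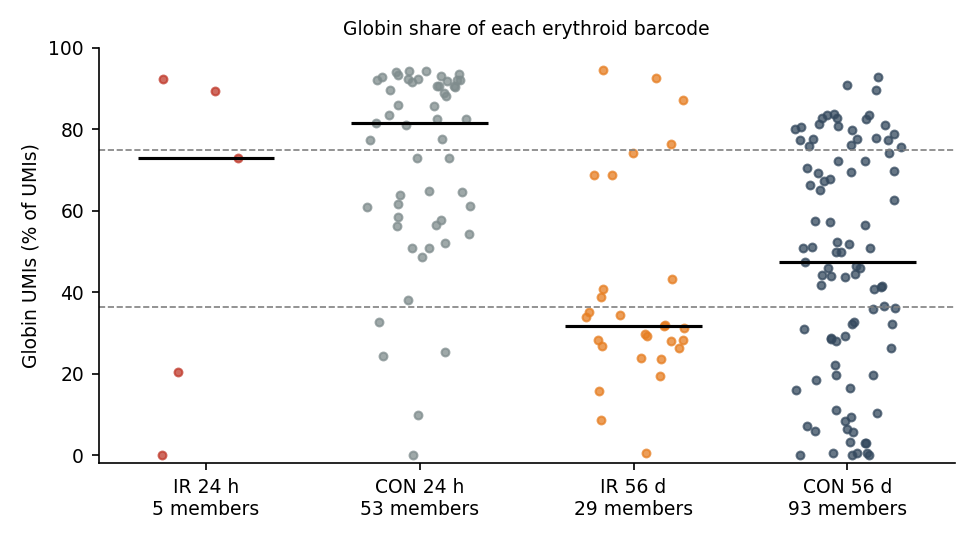
Globin UMIs as a percent of all UMIs in each erythroid barcode (points), by library, with the median of each library as a bar and the limits of the 3 equal-sized ranges as dashed lines. The medians are 72.9% and 81.4% in IR and CON at 24 hours and 31.8% and 47.5% in IR and CON at 56 days, and each library spreads from near 0 to above 90%.

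The 180 cells were set in 3 ranges of 60 by globin share to describe how they differed among themselves. The lowest range held 0% to 36.2% globin, the middle one 36.7% to 74.2% and the highest 75.6% to 94.5%. These are ranges of a continuous measure and not cell types, and 8 cells lay within 2 percentage points of the upper limit and 6 within 2 of the lower. The lowest range held 2 cells of IR and 5 of CON at 24 hours, and 19 of IR and 34 of CON at 56 days. The highest held 2 of IR and 30 of CON at 24 hours, and 4 of IR and 24 of CON at 56 days. Depth in UMIs was similar, with medians of 12843 in the lowest range, 9219.5 in the middle and 10370.5 in the highest, but the median number of genes was 2319.5, 1358.5 and 454.5. Ribosomal protein transcripts made up 26.2%, 8.07% and 3.99% of the UMIs outside globin in the same order. To keep globin from setting the scale, levels below are per 10000 non-globin UMIs.

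Across 4307 measured genes (at least 20 UMIs over both ranges), in the highest range 12.8% exceeded their level in the lowest by 2-fold or more, and 69.9% fell short of it by as much, with a median log2 ratio of -2.15. Against that background, all 21 genes of late maturation were higher, and their sum was 58.7 per 10000 in the lowest range, 253 in the middle and 1339 in the highest. Bpgm, which makes the bisphosphoglycerate that tunes the oxygen affinity of haemoglobin, had 1566 UMIs in the highest range and 45 in the lowest, 300-fold more per non-globin UMI (223 to 414). Mkrn1, a ubiquitin ligase, was 54.5-fold higher (47.1 to 63.4), and Ube2h, a ubiquitin-conjugating enzyme, was 62.2-fold higher (42.1 to 95.2). Tent5c, which lengthens poly(A) tails, was 98.2-fold higher (70.1 to 141), and Tmcc2 was 105-fold higher (77.7 to 146). Xpo7, a nuclear exportin of late erythroblasts, was 215-fold higher, but 52.4% of its 21 UMIs in the lowest range came from 1 cell. The other genes named by size of the ratio were Tcp11l2 (128-fold), Slfn14 (89.0-fold), Sowaha (82.6-fold) and Fam220a (ENSMUSG00000118332, 173-fold, on 40 and 2 UMIs). Interferon response genes had the same direction, with 5 of 8 higher (Isg15, Irf7, Ifi27, Rsad2 and Xaf1), 1 lower and sums of 8.34, 27.2 and 89.0 per 10000 in the lowest, middle and highest range.

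Heme synthesis genes differed among themselves. Of 13 measured genes, 6 were at least 2-fold higher in the highest range (among them Alas2, Urod, Ppox, Fech and Fam210b) and 3 at least 2-fold lower (Cpox, Tmem14c and Abcb6). Tmem14c, which passes porphyrin through the mitochondrial membrane, had 2155 UMIs in the lowest range, 429 in the middle and 0 in the highest. Alas2, which the rule used and which is given as a description, had 435 UMIs in the lowest range, 748 in the middle and 1080 in the highest. Iron handling was mixed, with 5 of 13 higher, among them the mitochondrial iron importer Slc25a37 and the ferritin light chain Ftl1, and 6 lower. Membrane and skeleton genes had 11 of 23 higher and 1 lower (Tmod3), and redox defence had 7 of 11 higher, among them Prdx2 and Cat (catalase), and 3 lower. Of the 14 transcription factors 8 were lower, among them Klf1, Tal1 and Gfi1b, and 5 higher (Nfe2, Lmo2, Klf3, Foxo3 and E2f2).

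S phase genes were lower where maturation genes were higher, while the G2/M list was highest in the middle range. All 18 measured S phase genes were at least 2-fold lower in the highest range, and their sum was 74.0 per 10000 in the lowest range, 48.1 in the middle and 0.737 in the highest. Pcna, the sliding clamp of DNA replication, had 584 UMIs in the lowest range, 107 in the middle and 0 in the highest. The G2/M list stood at 144 per 10000 in the lowest range, 289 in the middle and 55.2 in the highest. Cells with a UMI of the proliferation genes Mki67 or Top2a were 81.7% (69.6% to 90.5%) of the lowest range, 86.7% (75.4% to 94.1%) of the middle and 31.7% (20.3% to 44.96%) of the highest. Tubb5 (a beta-tubulin), Slbp (the histone stem-loop binding protein), Dut, Smc2 and Hnrnpab also had 0 UMIs in the highest range and between 453 and 1063 in the lowest. Ptma (prothymosin alpha) and H2afz (a histone variant) had 4 and 5 UMIs in the highest range and 3056 and 2536 in the lowest. Car1, which the rule used, had 2 UMIs in the highest range and 1136 in the lowest, while Car2 was 3.67-fold higher there (3.46 to 3.89), with 1618 UMIs in the highest range and 3805 in the lowest on the smaller non-globin total of the highest.

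**Figure D3:**
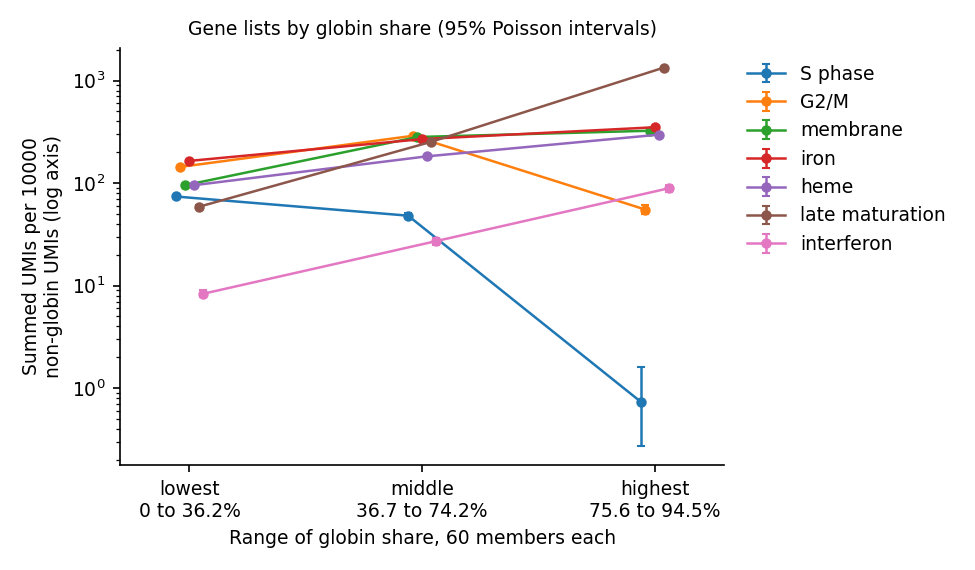
Summed UMIs of 7 gene lists per 10000 non-globin UMIs (log axis) in the lowest, middle and highest range of globin share, 60 erythroid barcodes each, with 95% Poisson intervals. Late maturation runs from 58.7 to 1339 and S phase from 74.0 to 0.737, while G2/M is highest in the middle range at 289. The heme list includes Alas2, which the rule used.

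The relations of late maturation and S phase had the same sign within libraries. Spearman's rho between globin share and the late maturation share over the 180 cells was 0.955, and it was 0.954 in CON at 24 hours, 0.800 in IR at 56 days and 0.934 in CON at 56 days. For S phase rho was -0.740 over all cells, -0.676 in CON at 24 hours, -0.407 in IR at 56 days and -0.715 in CON at 56 days. In other lists the sign or size differed between libraries. The membrane list had 0.546 over all cells but -0.083 in CON at 24 hours, and transcription factors had -0.293 in CON at 24 hours and 0.454 in IR at 56 days. For G2/M rho was -0.401 in CON at 24 hours and -0.006 in IR at 56 days, and for Rhd, which the rule used, it was -0.567 and 0.382. Cells of 1 library share its depth and its free RNA, so these values carry no p.

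At the other end, 9 cells had under 1% globin, 6 of them from CON at 56 days. They included the 2 cells with neutrophil markers. Of the rest, 1 cell of CON at 56 days held 75451 UMIs, 363 of them in the 5 selection genes, with 130 UMIs of Mki67 and 138 of Npm1. Another pair from CON at 56 days held 11 and 49 UMIs of Car1, with 11 and 9 of the early progenitor factor Gata2, 15 and 16 of Myb and 4 and 2 of the stem cell factor receptor Kit. Any UMI of Kit, Gata2 or Myb was found in 11 of the 180 cells, 5 of which were from CON at 56 days and 1 from IR at 24 hours. Cd34 had 1 UMI in all. One barcode that the endothelial limit removed, also from CON at 56 days, held 71578 UMIs, 137 of them Car1, 25 Myb and 9 Kit, with 8 UMIs of endothelial markers.

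At 24 hours gene ratios were not formed, since IR held 5 cells, and these are given singly. The first was the cell with pericyte markers, with 6537 UMIs and 20.3% globin, and it held all 11 UMIs of Cdkn1a found in the group. Another 3 held 11433, 12354 and 11092 UMIs, with 92.2%, 72.9% and 89.3% globin. They had 38, 37 and 30 UMIs of Bpgm and 0 of Mki67 and Top2a. The last held 568 UMIs, no globin, 2 UMIs of Car1, 1 of Rhd and 1 of Top2a. So 3 of the 5 lay in the middle and highest globin ranges, and the group's summed Bpgm of 2525 CPM stood beside 1861 CPM in CON. Among the 53 cells of CON at 24 hours, 26 (49.1%, 35.1% to 63.2%) carried Mki67 or Top2a, against 1 of 5 in IR. The 31 barcodes under the gene limit in IR at 24 hours had 402 UMIs of Bpgm per 10000 non-globin UMIs against 430 in the 33 of CON. Alas2, which the rule used, stood at 395 against 364, and a Mki67 or Top2a UMI lay in 0 and 1 of them.

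Genes that p53 activates after DNA damage were summed over a list of 24. Their level was 2588 non-globin CPM (1733 to 3717, 29 UMIs) in IR and 1780 (1566 to 2015) in CON at 24 hours, and 622 (514 to 745) in IR and 1196 (1116 to 1281) in CON at 56 days. Other barcodes stood at 6151 and 1693 in IR and CON at 24 hours and at 3048 and 1493 in IR and CON at 56 days. The list was lower in erythroid cells than in other barcodes in IR at both times and in CON at 56 days, while in CON at 24 hours the intervals of both overlapped. Cdkn1a, the cell cycle inhibitor, was at 262 CPM in IR and 22.8 in CON at 24 hours, and at 3.24 in IR and 9.86 in CON at 56 days, where other barcodes stood at 1839 and 179 CPM, and at 851 and 121 CPM. All of the IR value at 24 hours, 11 UMIs, came from the cell with pericyte markers, which also held 2 UMIs of Phlda3 and 1 of Mdm2. The list level of IR at 24 hours, on 29 UMIs, thus rests in large part on a cell that went against the label. At 56 days 1 of 29 cells in IR and 4 of 93 in CON held a Cdkn1a UMI. Mdm2, the p53 inhibitor, had 3 UMIs in IR and 22 in CON at 56 days, Ccng1 had 1 and 13, and Phlda3 had 0 and 2. Of the 5 p53 targets measured at 56 days none was at least 2-fold higher in IR, and Mdm2, Sesn1 and Btg2 were at least 2-fold lower, where 3.85% of all genes were higher and 16.6% lower. Per non-globin UMI only Sesn1 and Btg2 were past 2-fold.

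At 56 days, IR (29 cells) could be compared with CON (93 cells) over 4547 genes with at least 20 UMIs. Single deep cells weigh on these sums. In IR 1 cell, with 0.48% globin, held 44607 of the 188151 non-globin UMIs. In CON the deepest cell, with 0.38% globin, held 75164 of 690467. On the CPM scale 3.85% of these were higher in IR by 2-fold or more and 16.6% lower, and 0.902% and 3.94% had an interval wholly past 1.5-fold upward and downward. Per non-globin UMI the shares were 4.01% and 15.9%. The median log2 ratio was -0.04. None of 13 heme synthesis genes was past 2-fold in either direction, and these include Alas2, which the rule used. Fech, the enzyme that inserts iron, was at 357 CPM in IR and 517 in CON. The 5 measured globins had none past 2-fold either.

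Some genes of iron handling were lower in IR. Tfrc, the transferrin receptor, was at 392.2 CPM in IR and 856 in CON, and Slc25a37 at 522 and 1079 CPM. With Ireb2, Hmox1 and Slc40a1 these made 5 of 13 iron genes at least 2-fold lower in IR. The counts of Hmox1, which breaks down heme, and Slc40a1, the iron exporter ferroportin, rested on 1 cell of CON, which held 92 of 93 and 95 of 128 of their UMIs together with 144 UMIs of macrophage markers. Its erythroid markers were present too, with 60 UMIs of the selection genes. Membrane genes had 0 higher and 4 of 23 lower (Epb41, Epb42, Tmod1 and Cd36), close to the 16.6% of all genes. Of 14 transcription factors Gfi1b, a repressor needed for red cell formation, was higher, at 126 CPM in IR and 48.4 in CON (ratio 2.61, 1.68 to 4.02), and Bcl11a was lower.

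Maturation and division lists differed in composition. Late maturation had 0 higher and 7 of 21 lower, with a median log2 ratio of -0.65 beside -0.04 for all genes. Xpo7 was at 51.9 CPM in IR and 453 in CON (ratio 0.115, 0.0650 to 0.188), and 93.8% of its 16 UMIs in IR lay in 1 cell. Bpgm was at 318 CPM in IR and 592 in CON. The S phase list had 2 of 18 higher (Gins2 and Ung), 0 lower and a median of 0.37. The G2/M list had 0 higher and 2 of 19 lower (Mki67 and Tpx2), and Mki67 was at 765 CPM in IR and 1553 in CON. Cells with a UMI of Mki67 or Top2a were 72.4% (52.8% to 87.3%, 21 of 29) in IR and 77.4% (67.6% to 85.4%, 72 of 93) in CON, with overlapping intervals. In IR and CON, granulocyte-monocyte progenitors stood at 3 of 3 and 10 of 11, so a high share was not particular to erythroid cells. B cell precursors stood at 6.06% and 23.3% and endothelial barcodes at 1.63% and 0.639%. Thinned to 1000 UMIs a cell, erythroid cells were at 51.9% and 60.4%, and the progenitors at 2 of 3 and 6 of 11.

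Among named genes, Nmral1, a sensor of NADPH, was at 87.5 CPM in IR and 15.2 in CON (ratio 5.74, 3.02 to 11.2), and Rpgrip1 at 133 and 29.6 CPM (4.49, 2.77 to 7.33). Siva1, which promotes cell death, was at 331 CPM in IR and 156 in CON (2.12, 1.64 to 2.72). Sarnp, an mRNA export protein, was 2.21-fold higher, Cirbp, a cold-induced RNA-binding protein, 3.29-fold, Cenps, of the centromere, 3.44-fold and Tinf2, of the telomere cap, 4.42-fold. Thinned to 1000 UMIs a cell, Cirbp and Sarnp turned, with log2 ratios of -1.42 and -0.32. Before thinning they had 20 and 66 UMIs in IR and 22 and 108 in CON, so few were left. Ap4m1 (4.42-fold) and Aamp (3.62-fold) rested on 9 and 15 UMIs in CON. Lower in IR were Cpeb4, a translational repressor of late erythroblasts, at 22.7 CPM in IR and 161 in CON (0.141, 0.0557 to 0.296), and Gda, guanine deaminase, at 6.48 and 95.9 CPM (0.0676, 0.00808 to 0.25). Tcp11l2 had 3 UMIs in IR and 114 in CON, and the factor Zbtb20 had 0 and 57. Fos, an immediate early factor, had 0 UMIs in IR and 142 in CON, 40.1% of them in 1 of 9 cells, and thinned its log2 ratio was 0.17. Lyz2 and Cyba, both strong in myeloid cells, had 3 and 0 UMIs in IR and 138 and 58 in CON. All 6 neutrophil markers were lower in IR, with 3 UMIs in IR and 3899 in CON, 65.8% of these in 1 cell. Without cells that bore another cell type's markers, Fos, Zbtb20, Lyz2, Cyba, Ap4m1, Tinf2 and Aamp had under 20 UMIs and were no longer measured. Xpo7 (0.112), Gda (0.0996), Cpeb4 (0.0949) and Tcp11l2 (0.0934) then kept their direction, as did Nmral1 (4.84) and Rpgrip1 (3.74), and Siva1 was 1.78-fold and Sarnp 1.87-fold higher in IR per non-globin UMI, both under 2-fold.

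Clustered histone genes, a list made after the ratios had been seen, had 1 of 54 higher and 18 lower in IR with a median log2 ratio of -0.65. Hist1h1b, the linker histone H1.5 made in S phase, was at 1484 CPM in IR and 5272 in CON (0.282, 0.256 to 0.310). It was found in 20 of 29 and 82 of 93 cells, and Hist1h3c was at 156 CPM in IR and 812 in CON. Most transcripts of these genes lack the poly(A) tail on which the libraries were primed, so the values are those of the captured part. Histone genes were also lower outside erythroid cells, though not in the endothelial median. Per non-globin UMI, 20 of 46 measured histone genes were at least 2-fold lower in IR in the other barcodes (median -0.76, where 808 of 13487 genes were lower), 20 of 23 in B cell precursors (-2.71) and 4 of 18 in endothelial barcodes (0.19). For late maturation, 7 of 21 in erythroid cells stood beside 0 of 17 in other barcodes. The 13 mitochondrially encoded genes had 6 lower and a median log2 ratio of -0.98 on the CPM scale, and per non-globin UMI -0.96, where it was -0.30 in other barcodes, -0.52 in endothelial barcodes and -0.69 in B cell precursors.

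**Figure D4:**
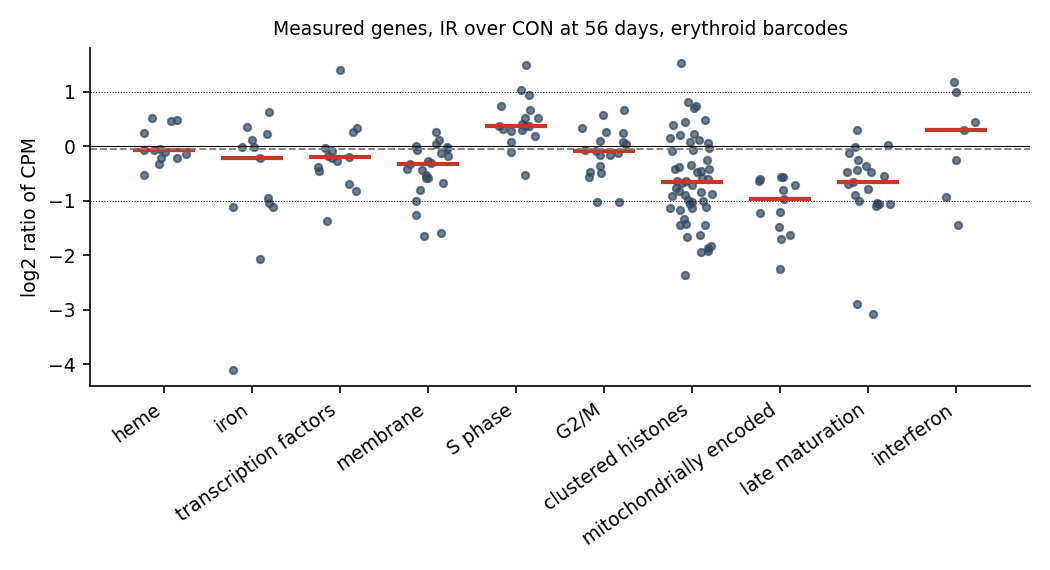
Log2 ratio of CPM, IR over CON at 56 days, for each measured gene (points) of 10 lists in erythroid barcodes, with list medians as bars, the median of all genes as a dashed line and 2-fold limits as dotted lines. Heme synthesis stays within the limits, and clustered histones and late maturation have medians of -0.65.

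The IR cells of 56 days lay more in the lowest globin range, 19 of 29, than those of CON, 34 of 93. Several of these IR cells were shallow, with totals such as 818, 1101 and 1206 UMIs. The 9 IR cells with another cell type's markers had a median of 1174 UMIs and the other IR cells 12152, against 10616 and 9160 in CON. Whether depth bears on the globin shares was not tested. Both libraries were also compared within the lowest range. It held the deepest cell of each, with 44607 non-globin UMIs in IR and 75164 in CON. Over 3985 genes 3.46% were then higher in IR by 2-fold or more and 16.5% lower. The late maturation list had 1 of 17 lower (Xpo7) with a median of 0.02, and the membrane list had 0 of 23 past 2-fold. Histones kept the direction, with 16 of 47 lower, 1 higher and a median of -0.69, and Hist1h1b was at 22.0 per 10000 non-globin UMIs in IR and 79.5 in CON. Mitochondrially encoded genes had 7 of 13 lower. Tfrc, Ireb2, Hmox1 and Slc40a1 remained at least 2-fold lower, and Slc25a37 did not. In the middle range IR held 6 cells, and the late maturation sum was 191 per 10000 in IR and 245 in CON. Without cells that bore another cell type's markers (20 in IR, 52 in CON), late maturation had 5 of 19 lower, histones 22 of 50 and mitochondrial genes 5 of 13, where 424 of all 2907 measured genes were lower and 200 higher.

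Between the shielded limbs, CON at 56 days (93 cells) and CON at 24 hours (53 cells), the globin share itself differed, and with it the scale. Over all UMIs 74.1% of 4369 genes were higher at 56 days by 2-fold or more and 1.03% lower, with a median log2 ratio of 1.51. Per non-globin UMI 26.9% were higher and 7.15% lower, with a median of 0.30. The values below are per non-globin UMI unless the other scale is named. Mice, age and library differ together with time here.

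Genes of late erythroid cells were lower at 56 days. Late maturation had 13 of 21 at least 2-fold lower and 0 higher, with a median of -1.58, where over all UMIs it had 2 lower, 1 higher and a median of -0.36. Bpgm was at 956 non-globin CPM in CON at 56 days and 6977 in CON at 24 hours (ratio 0.137, 0.124 to 0.151), Mkrn1 at 1227 and 6023 (0.204, 0.185 to 0.224) and Ubb, a ubiquitin gene, at 3209 and 12196 (0.263, 0.247 to 0.280). Tent5c was at 0.234 times its level at 24 hours, Prxl2a at 0.240, Ube2l6 (the enzyme that attaches Isg15) at 0.249 and Fam220a, with 15 and 25 UMIs, at 0.122. Of the heme genes Alas2 (which the rule used), Fech and Fam210b were lower and Abcb6 was higher, with 9 of 13 not past 2-fold. Membrane genes had 2 of 23 lower (Epb41 and Cd36). Over all UMIs Bpgm was still lower at 56 days (0.318, 0.288 to 0.351).

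Genes of ribosomes were higher at 56 days. Of 12 early progenitor genes only Gata2, Myb and Runx1 were measured, all at least 2-fold higher at 56 days, and none had an interval wholly past 1.5-fold. A UMI of Kit, Gata2 or Myb lay in 5 of 93 cells at 56 days and 2 of 53 at 24 hours, and the pair of cells described above held 20 of the 21 Gata2 and 31 of the 40 Myb UMIs at 56 days. Ribosomal proteins had 51 of 88 higher and 0 lower. Genes that process ribosomal RNA, a list made after the ratios had been seen, had 8 of 11 higher and 0 lower. Npm1, nucleophosmin, had 456 UMIs at 56 days and 17 at 24 hours (5.46-fold, 3.37 to 9.45), of which 30.3% at 56 days lay in 1 cell. Nop58 had 93 and 1, Fbl (fibrillarin) 59 and 0, and Nhp2 58 and 0. Without cells that bore another cell type's markers Fbl, Nhp2 and Hspa1a had under 20 UMIs and were no longer measured, and Nop58 had 31 and 0. Nme1, a nucleoside diphosphate kinase, had 180 and 4 UMIs. The chaperone gene Hspa1a had 71 and 0 and Hspe1 had 102 and 1, Mif, a cytokine, had 65 and 0, and C1qtnf12, a secreted protein, had 181 and 2. Car1, which the rule used and which is given as a description, was 6.14-fold higher (4.29 to 9.08) and found in 36 of 93 cells at 56 days and 5 of 53 at 24 hours. S phase had 4 of 17 higher and G2/M 2 of 19, with none lower, where over all UMIs these were 15 and 17.

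Interferon response genes were lower at 56 days, with 6 of 8 at least 2-fold lower (among them Isg15, Irf7, Ifi27, Rsad2 and Ifitm3), 1 higher (Bst2) and a median log2 ratio of -1.82. Over all UMIs 3 were lower (Isg15, Ifi27 and Rsad2) and the median was -0.61. Isg15, a ubiquitin-like protein, had 198 UMIs at 56 days and 333 at 24 hours (ratio 0.121, 0.101 to 0.145), found in 44 of 93 and 33 of 53 cells. Rsad2, an antiviral enzyme, had 284 and 298 UMIs (0.194, 0.164 to 0.229), but with cells weighted equally its log2 ratio over all UMIs was 0.024. Ifi27 had 91 and 93 (0.199, 0.147 to 0.269). Over all UMIs the ratio of Isg15 was 0.281 (0.234 to 0.336). In the other barcodes of the same libraries 0 of 14 interferon genes were past 2-fold. Among B cell precursors 1 of 4 measured was higher.

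**Figure D5:**
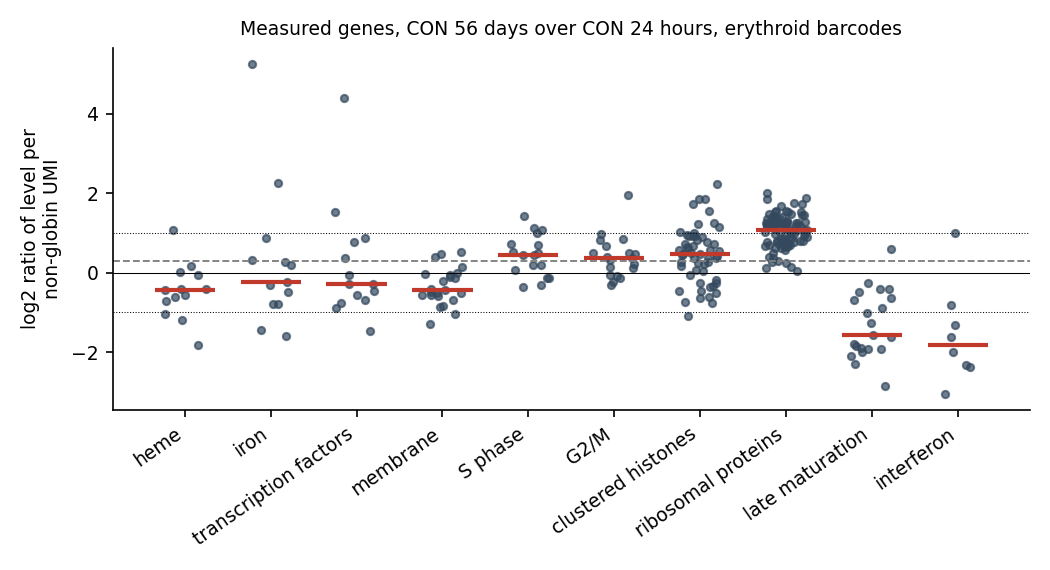
Log2 ratio of levels per non-globin UMI, CON at 56 days over CON at 24 hours, for each measured gene (points) of 10 lists in erythroid barcodes, with list medians as bars, the median of all genes as a dashed line and 2-fold limits as dotted lines. Late maturation and interferon genes have medians of -1.58 and -1.82, and ribosomal proteins lie above the median of all genes.

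The highest globin range held 24 of the 93 cells at 56 days and 30 of the 53 at 24 hours, so the cells were also compared within ranges. In the middle range (35 cells at 56 days, 18 at 24 hours; 11.6% of 1650 genes higher and 7.33% lower) late maturation had 0 of 19 past 2-fold, and ribosomal proteins had 0 of 79 higher and 6 lower. Of the ribosomal RNA processing genes only Npm1 and Ncl were measured there, and both were at least 2-fold lower at 56 days, with 12 UMIs of Npm1 at each time, where over all cells Npm1 was 5.46-fold and Ncl 1.45-fold higher. In the highest range (24 and 30 cells; 17.4% of 512 genes higher and 4.69% lower) late maturation had 2 of 19 higher (Xpo7 and Trim58) and 1 lower (Bpgm). Interferon genes were lower in both, with 3 of 4 in the middle range (Isg15, Ifi27 and Rsad2) and 3 of 4 in the highest (Isg15, Ifi27 and Ifitm3), where their sum was 50.1 per 10000 non-globin UMIs at 56 days and 140 at 24 hours. Histone genes had 32 of 45 higher in the middle range and 5 of 7 in the highest. The G2/M list in the middle range had 9 of 19 higher and the S phase list 7 of 12 lower. Histones were also higher at 56 days outside erythroid cells, with 15 of 45 in other barcodes and 22 of 28 in B cell precursors. Without cells that bore another cell type's markers (52 at 56 days, 37 at 24 hours), late maturation had 14 of 20 lower and 0 higher over all globin shares, interferon genes 5 of 5 lower, ribosomal proteins 64 of 83 higher and histones 29 of 46 higher. Of all 2424 genes measured there, 724 were higher and 221 lower.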

How the data were processed

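The deposited values were UMI counts per gene and barcode, 1 matrix per library and 32285 genes, which the authors made with Cell Ranger 5.0.0 on mm10, per the submitters' processing notes. Libraries were 10x 3′ v3, per the labels' protocols. Counts were summed over the erythroid barcodes of each library. Shares have Clopper-Pearson intervals, levels exact Poisson intervals and ratios exact conditional binomial intervals, all at 95%. They cover counting error only, and cells are not replicates. Genes with at least 20 summed UMIs counted as measured, and log2 ratios used a prior of 0.5. Gene ratios needed 10 cells in both libraries, so none was formed at 24 hours.

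Members and gene lists were chosen with earlier results of these data known. The lists of clustered histone, mitochondrially encoded, ribosomal protein and ribosomal RNA processing genes, the comparisons within globin ranges, the barcodes under the gene limit and the cells given singly were chosen after values were seen. Named genes were the 5 selection genes, Car2, the list genes shown as examples and, per comparison, the 10 each way whose interval bound nearest 1 was furthest. These left out mitochondrial, ribosomal protein, globin, sex-linked, predicted, immunoglobulin, T cell receptor and other cells' marker genes, and genes in under 3 cells or with over 50% of UMIs in 1 cell. Hba-a1 and Hba-a2, Hbb-bs and Hbb-bt, and clustered histones have near-identical copies, so their split is uncertain. Ahsp was not used here. Endothelial barcodes, granulocyte-monocyte progenitors and B cell precursors were counted by marker sums in the same way.

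No doublet caller was run. An alternative left out the 69 cells with at least 2 UMIs of another cell type's markers. Other alternatives changed the selection, filters, scaling, weighting and depth. The calculation was tested on simulated data. Python 3.11.15, numpy 2.4.6, scipy 1.17.1, pandas 2.3.3 and matplotlib 3.10.9 were used. Gene positions are from GENCODE on GRCm38, and promoters from RefSeq.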

Additional observations from a re-analysis of the deposited data

Results flagged for a closer look

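The 104 barcodes with erythroid markers but under 200 genes were picked out because they carry the signal of the 5 selection genes outside the barcodes that the shares count. They were 31 in IR and 33 in CON at 24 hours, and 13 in IR and 27 in CON at 56 days, of 181 barcodes under the limit that passed the other filters. Their median globin share was 96.2% in IR and 95.2% in CON at 24 hours, and 97.5% in IR and 96.5% in CON at 56 days. Car1 and Alas2 are among the 5 genes that chose these barcodes, so their levels are a description only. Car1 was at 0 in all of them, Alas2 stood between 364 and 503 UMIs per 10000 non-globin UMIs, and 1 of them held a UMI of Mki67 or Top2a. Over these barcodes alone, the ratio of shares of IR to CON was 0.5 (0.296 to 0.842) at 24 hours and 0.844 (0.400 to 1.69) at 56 days.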

How the results depend on the processing

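No paired analysis was possible because each group is 1 library and no test was made. Pooling, lysis and the sort limit every share, and gene ratios at 24 hours, with their alternatives, were not run because IR held 5 cells. Over the alternatives the ratio of shares, IR over CON, stayed below 1, at 0.0284 to 0.223 at 24 hours and 0.504 to 0.675 at 56 days. With no limit on genes the share was 1.38% in IR and 6.20% in CON at 24 hours and 6.89% in CON at 56 days, and the ratio at 24 hours was 0.223. Without cells bearing other markers it was 2.77% in CON at 24 hours and 3.06% in CON at 56 days. The share with Mki67 or Top2a in IR at 24 hours was 0 with 5 or more selection UMIs, with at least 1000 UMIs and when thinned. With no limit on genes it was 50% in IR and 60% in CON at 56 days and 31.4% in CON at 24 hours, and thinned it was 51.9%, 60.4% and 21.2%.

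Counts of genes past 2-fold moved most. They are counts and not shares, and leaving out cells, thinning or another UMI minimum also changes how many genes are measured. Per non-globin UMI, IR over CON at 56 days had 721 lower and 182 higher of 4542 genes. Without cells bearing other markers these were 424 and 200 of 2907. For IR over CON at 56 days, 175 higher became 87 with endothelial UMIs at 0, 96 with no limit on genes, 750 with cells weighted equally, 60 thinned, and 372 or 48 with at least 10 or 50 summed UMIs. The 755 lower became 381 without cells bearing other markers, 464 without the 5% of cells with most UMIs, 103 thinned, and 1340 or 299 with at least 10 or 50 UMIs. For CON at 56 days over CON at 24 hours, 3238 higher over all UMIs became 2002 without cells bearing other markers, 2140 without the deepest 5%, 1173 per non-globin UMI, 1461 per UMI outside globin, mitochondrial and ribosomal protein genes, 843 by median-of-ratios scaling, 252 thinned and 1713 with at least 50 UMIs. The 45 lower became 23 with 5 or more selection UMIs, 23 without Ctse, 12 without cells bearing other markers, 317 per non-globin UMI (globins counted), 232 per UMI outside the 3 gene groups, 537 by median-of-ratios, 5 thinned, and 84 or 22 with at least 10 or 50 UMIs. Thinning reversed Cirbp (log2 ratio -1.42), Sarnp (-0.32) and Fos (0.17) in IR over CON at 56 days, and equal weights reversed Rsad2 (0.024) in CON at 56 days over CON at 24 hours. The cause was not tested. The S phase log2 ratio of the highest over the lowest range was -6.65, -7.71 with ranges set by late maturation and -6.10 without cells bearing other markers.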

Other observations

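A single cell of CON at 56 days held both erythroid and macrophage transcripts. It had 23701 UMIs with 22.1% globin, 60 UMIs of the selection genes, 57 of Car2 and 18 of Slc4a1. It also held 66 UMIs of C1qa and 58 of C1qb, complement genes of tissue macrophages, with 92 of Hmox1 and 95 of Slc40a1, which break down heme and export iron. A cell of CON at 24 hours held 231 UMIs of Schwann cell markers beside 57.7% globin, and a cell of CON at 56 days held 19 UMIs of satellite cell markers.

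Ribosomal protein transcripts of erythroid cells made up 8.57% of non-globin UMIs in IR and 10.4% in CON at 24 hours, and 26.6% in IR and 20.5% in CON at 56 days, where other barcodes held 10.8%, 19.6%, 13.3% and 10.9% in the same order. At 56 days 4 of 89 ribosomal protein genes were at least 2-fold higher in IR and 1 lower, close to the 3.85% of all genes that were higher.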
